A study of Mus musculus with 6 samples.

Results

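The genes described here carry the beta-adrenergic and cAMP signal of the heart, from the receptors that bind adrenaline to the enzymes that make, read and destroy cAMP and the factors that act on transcription. They were taken from the deposited table as the rows whose symbol equals 1 of 43 listed names, and where a symbol sat in several rows the row with the highest mean was used. All 43 were found among the 25901 rows, and Adcy9 was the only symbol in more than 1 row. The hearts compared came from 3 mice labelled SRAKO (SRAKO2365, SRAKO2371 and SRAKO2372) and 3 labelled WT (WT2368, WT2379 and WT2378). The series title names the steroid receptor RNA activator, SRA, a product of Sra1 known for helping steroid receptors to activate genes, and the SRAKO mice are read here as its knockouts. Both genotypes had received isoproterenol, a beta-adrenoceptor agonist, for 4 weeks. The question the design poses for these genes is whether the loss of SRA goes with other levels of the pathway that isoproterenol itself drives. The labels give no strain, sex, age, dose, litter or allele, and no heart without isoproterenol is used here, so nothing is measured of the response to the drug.

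In a heart muscle cell, noradrenaline or isoproterenol on a beta-adrenoceptor activates the stimulatory G protein, which switches on adenylyl cyclase. The cAMP made releases the catalytic subunits of protein kinase A (PKA) from their regulatory subunits, and PKA then phosphorylates calcium channels, phospholamban and troponin I, so that the beat is stronger and faster. Phosphodiesterases break cAMP down, anchoring proteins hold PKA near its targets, and receptor kinases and arrestins silence receptors that are stimulated for long.

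Values are FPKM, the read coverage of a gene scaled to transcript length and to the fragments of the library, so levels of different genes can be set side by side. Sra1 stood at 1.96, 1.78 and 2.05 FPKM in SRAKO2365, SRAKO2371 and SRAKO2372, against 4.40, 6.31 and 4.23 in WT2368, WT2379 and WT2378, in a row that also holds a transcript of its neighbour. The tissue label held, with Myh6, the main myosin of the mouse ventricle, at 2522 to 2745 FPKM in SRAKO hearts and 2393 to 2724 in WT hearts. WT2368 stood apart. It had the most mitochondrial ribosomal RNA (mt-Rnr1 at 4548 FPKM, against 879 to 1896 in the other hearts) and was the lowest heart in 44.9% of the 10201 rows tested and in 15 of the 43 members. SRAKO2371 came next in mt-Rnr1, at 1896. It also held the most adipocyte marker RNA, and WT2379 the most atrial marker RNA, as given beside the genes these move with. The depth in reads is unknown.

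None of the 43 genes was called between the genotypes. Of the 43, 35 reached an FPKM of 1 in 3 or more hearts and were tested with limma on log2(FPKM + 1), with Benjamini-Hochberg adjustment over all 10201 rows, and 0 of them passed an adjusted p of 0.05 (smallest adjusted p = 0.999). Of all rows tested, 2 passed, a share of 0.0196%. Sra1 itself did not pass, though its SRAKO mean was 38.8% of WT without overlap (log2 difference -1.01; limma, unadjusted p = 0.000101, adjusted p = 0.258). The absence of a call therefore does not show that a level is unchanged. In limma 0 members had an unadjusted p below 0.05 in either direction, against 1.9% of all rows higher in SRAKO and 1.56% lower. The smallest unadjusted p of a member was 0.0585, for Adcy7.

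Among the 35 tested members 15 had a higher and 20 a lower mean log2 value in SRAKO hearts. Lower members were 57.1% of these, where 46.5% of all tested rows were lower. The median difference was -0.034 for the members and 0.0094 over all tested rows. The median size of the difference, sign left aside, was 0.083 for the members and 0.080 for all rows. The genotypes did not overlap in 0 tested members that were higher in SRAKO and in 2 that were lower, where 4.28% of all tested rows were higher and 3.76% lower without overlap. Of the 8 members below the filter, 1 was higher (Pde3b) and 2 were lower (Akap5 and Crem) without overlap. The share among all rows below the filter was not computed. For 34 of the 35 members the 95% interval of the difference lay within a 2-fold change in either direction on the log2(FPKM + 1) scale, and Arrb1 was the exception. These intervals are limma's and are not adjusted for the number of genes. They count only the spread between these hearts, since nothing in the labels says how the hearts relate to each other.

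**Figure D1:**
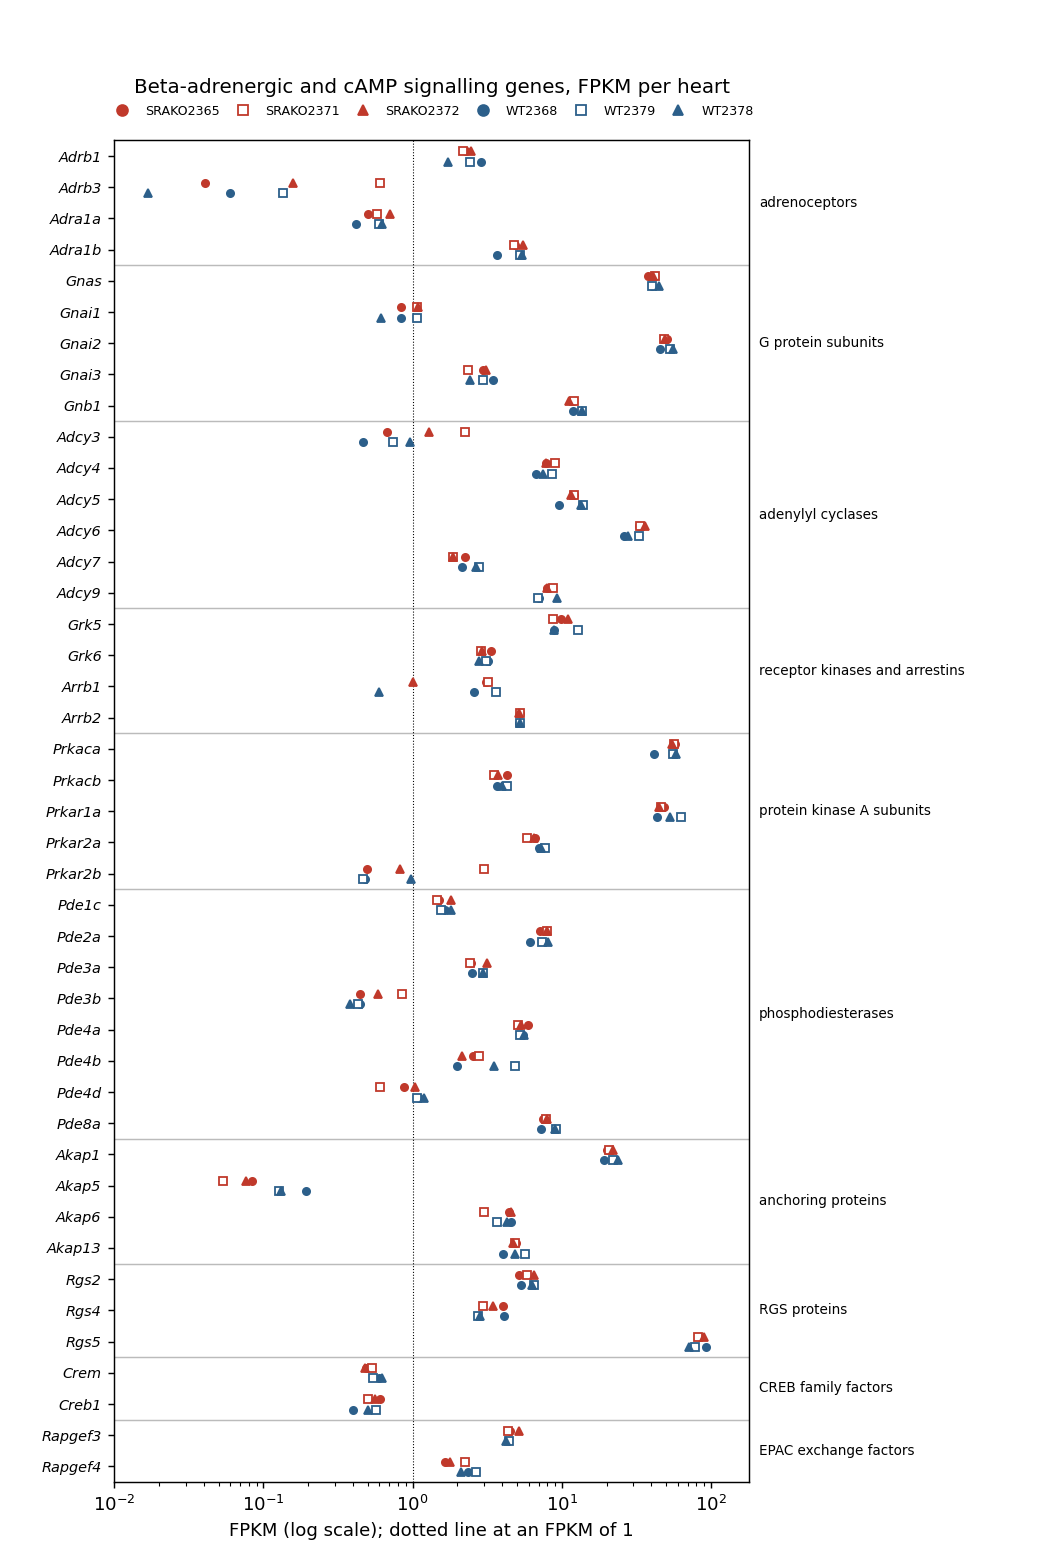
FPKM of the 43 members (log axis) in each heart, SRAKO hearts in red above WT hearts in blue, grouped by role. Most genes show overlapping genotypes, and levels run from 0.0167 FPKM for Adrb3 in WT2378 to 92.8 FPKM for Rgs5 in WT2368.

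**Figure D2:**
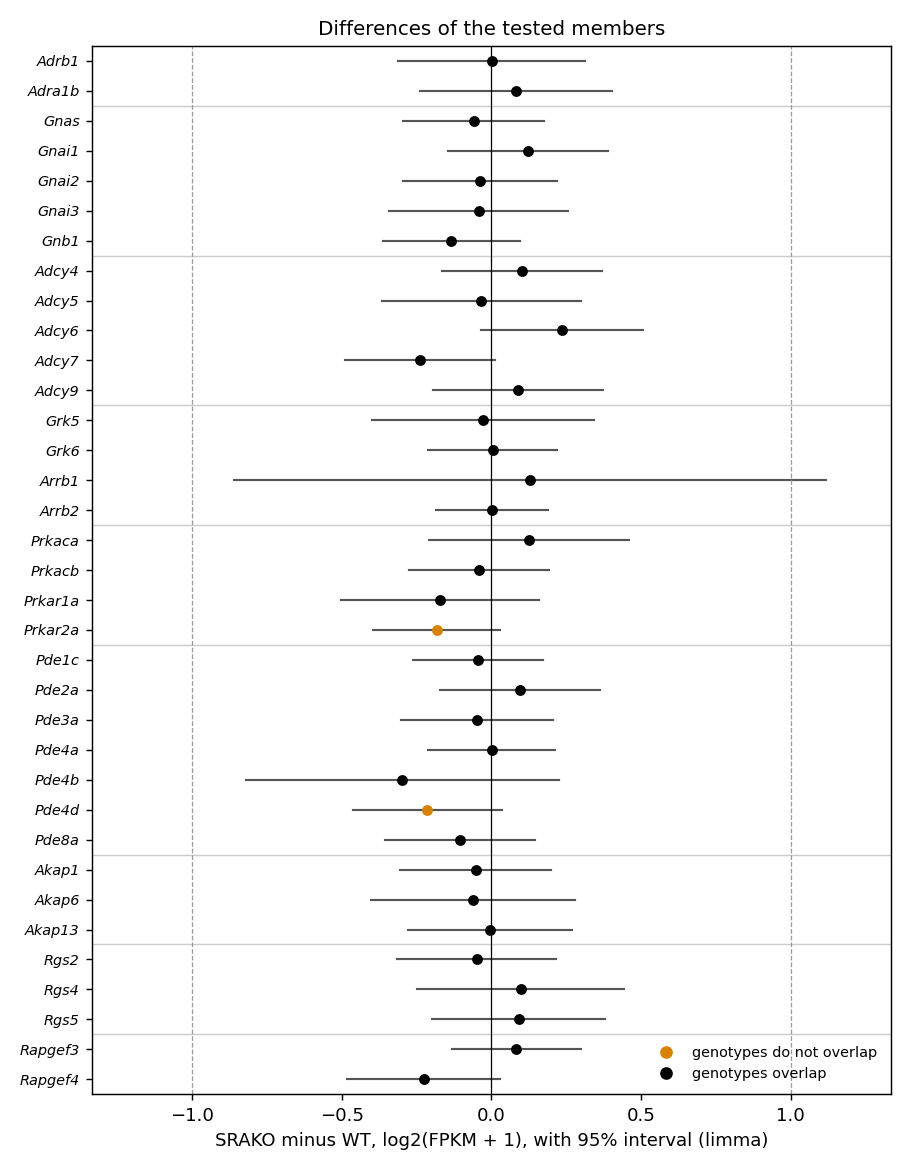
Difference between SRAKO and WT hearts in log2(FPKM + 1) for the 35 tested members (points) with limma's 95% interval (bars), and dashed lines at a change of 1 on that scale. All intervals cross 0, the widest is that of Arrb1, and Prkar2a and Pde4d (orange) are the members whose genotypes did not overlap.

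The adrenoceptors were weakly expressed. Adrb1, the main beta-adrenoceptor of the heart muscle cell, was at 2.29, 2.19 and 2.45 FPKM in the SRAKO hearts and at 2.89, 2.43 and 1.72 in the WT hearts. All 3 SRAKO values lay inside the WT range, and the log2 difference was 0.00021 with a 95% interval from -0.31 to 0.31. Adra1b, an alpha-1 receptor that signals through the Gq protein to phospholipase C, had the highest level of the 4 receptors listed, at 4.89, 4.79 and 5.50 FPKM in SRAKO and 3.66, 5.23 and 5.43 in WT. Its share of the summed FPKM of these 4 genes was 61.4% ± 2.50 in SRAKO and 61.4% ± 8.82 in WT (SD, n = 3 each). The log2 difference of Adra1b, 0.082, turned to -0.064 without WT2368, the heart with the lowest value. Adra1a, the second alpha-1 receptor, stayed below the filter at 0.500 to 0.702 FPKM in SRAKO hearts and 0.419 to 0.621 in WT hearts.

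Adrb3, the beta-3 receptor best known from fat cells, was at 0.0406, 0.607 and 0.159 FPKM in SRAKO2365, SRAKO2371 and SRAKO2372, and at 0.0594, 0.136 and 0.0167 in WT2368, WT2379 and WT2378. It was highest in SRAKO2371 and not tested. Without that heart the SRAKO mean was 0.0996, against 0.0707 in WT. Of its exon bases 26.3% overlap the antisense gene Gm45470, and the labels do not state whether reads were counted by strand.

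Among the 5 G protein members, the stimulatory alpha subunit and a single inhibitory one had the highest levels. Gnas, which encodes the stimulatory subunit, was at 37.9, 42.0 and 40.7 FPKM in SRAKO hearts and 40.3, 40.5 and 45.0 in WT hearts. Gnai2, the leading inhibitory subunit, was at 51.2, 48.8 and 49.5 in SRAKO and 45.4, 52.9 and 55.7 in WT. The SRAKO values of Gnai2 lay inside the WT range, while those of Gnas reached below it. Gnai2 made up 91.4% to 94.8% of the summed FPKM of the 3 inhibitory subunits in any heart. The ratio of Gnai2 to Gnas was 1.24 ± 0.0967 in SRAKO and 1.22 ± 0.0913 in WT (SD, n = 3 each), so the balance of inhibitory to stimulatory subunit RNA differed less between the genotypes than among hearts of a genotype.

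Gnai3 was at 2.36 to 3.11 FPKM in SRAKO hearts and 2.41 to 3.44 in WT hearts. Gnai1 was at 0.834 to 1.08 in SRAKO hearts and 0.616 to 1.07 in WT hearts, and passed the filter with exactly 3 hearts at 1 or above. Gnb1, a beta subunit shared by many G proteins, was at 11.97, 12.1 and 11.2 in SRAKO and 11.8, 13.6 and 13.6 in WT. It differed on the log2 scale by -0.13 (SE 0.10; limma, unadjusted p = 0.212). Of the exon bases of Gnas, 22.0% overlap the antisense genes Nespas and Gm20721.

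RNA of the 6 listed adenylyl cyclases came mostly from Adcy6 and Adcy5, the isoforms that dominate in heart muscle cells and that calcium inhibits. Adcy6 was at 32.9, 33.6 and 36.0 FPKM in SRAKO hearts and at 26.2, 33.1 and 27.7 in WT hearts. SRAKO2371 and SRAKO2372 stood above every WT heart, and SRAKO2365 just below WT2379. On the log2 scale the difference was 0.24 (SE 0.12), the highest of the tested members (limma, unadjusted p = 0.0802, adjusted p = 0.999). With the hearts rescaled by median-of-ratios size factors the unadjusted p was 0.0366, and the adjusted p 0.955. An antisense gene, Gm29331, shares 10.02% of the exon bases.

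Adcy5 was at 12.1, 12.1 and 11.6 FPKM in SRAKO hearts and 9.60, 14.0 and 13.5 in WT hearts. The ratio of Adcy6 to Adcy5 was 2.73, 2.79 and 3.10 in SRAKO and 2.73, 2.38 and 2.04 in WT, so that the genotypes met at 2.73. Adcy7, a cyclase of blood and immune cells, was at 2.24, 1.86 and 1.86 in SRAKO and 2.14, 2.80 and 2.66 in WT. On the log2 scale it differed by -0.24 (SE 0.11; limma, adjusted p = 0.999), and the genotypes overlapped between SRAKO2365 and WT2368. Macrophage and monocyte markers summed to 113, 117.5 and 126 FPKM in SRAKO and 92.2, 111 and 108 in WT, 5 of 6 of them with a higher mean in SRAKO, the other direction from Adcy7.

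Adcy4, an isoform of the endothelium, had 7.86, 9.06 and 7.86 FPKM in SRAKO hearts and 6.75, 8.67 and 7.53 in WT hearts. Adcy9, an isoform that forskolin activates poorly, was at 7.99, 8.71 and 7.99 in SRAKO and 7.08, 6.90 and 9.24 in WT. That row held an assembled transcript with no annotated counterpart, and the second row of Adcy9, with annotated transcripts, was at 1.94 to 2.01 in SRAKO and 1.88 to 2.20 in WT. The 6 cyclases together summed to 66.0 ± 1.99 FPKM in SRAKO and 60.02 ± 7.11 in WT (SD, n = 3 each).

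Adcy3 stayed below the filter because only SRAKO2371 and SRAKO2372 reached an FPKM of 1. Its values were 0.672, 2.24 and 1.296 FPKM in the SRAKO hearts and 0.465, 0.744 and 0.962 in the WT hearts. The highest value was again that of SRAKO2371, and without it the SRAKO mean was 0.984, against 0.724 in WT. Of its exon bases 22.1% overlap the antisense gene Cenpo.

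**Figure D3:**
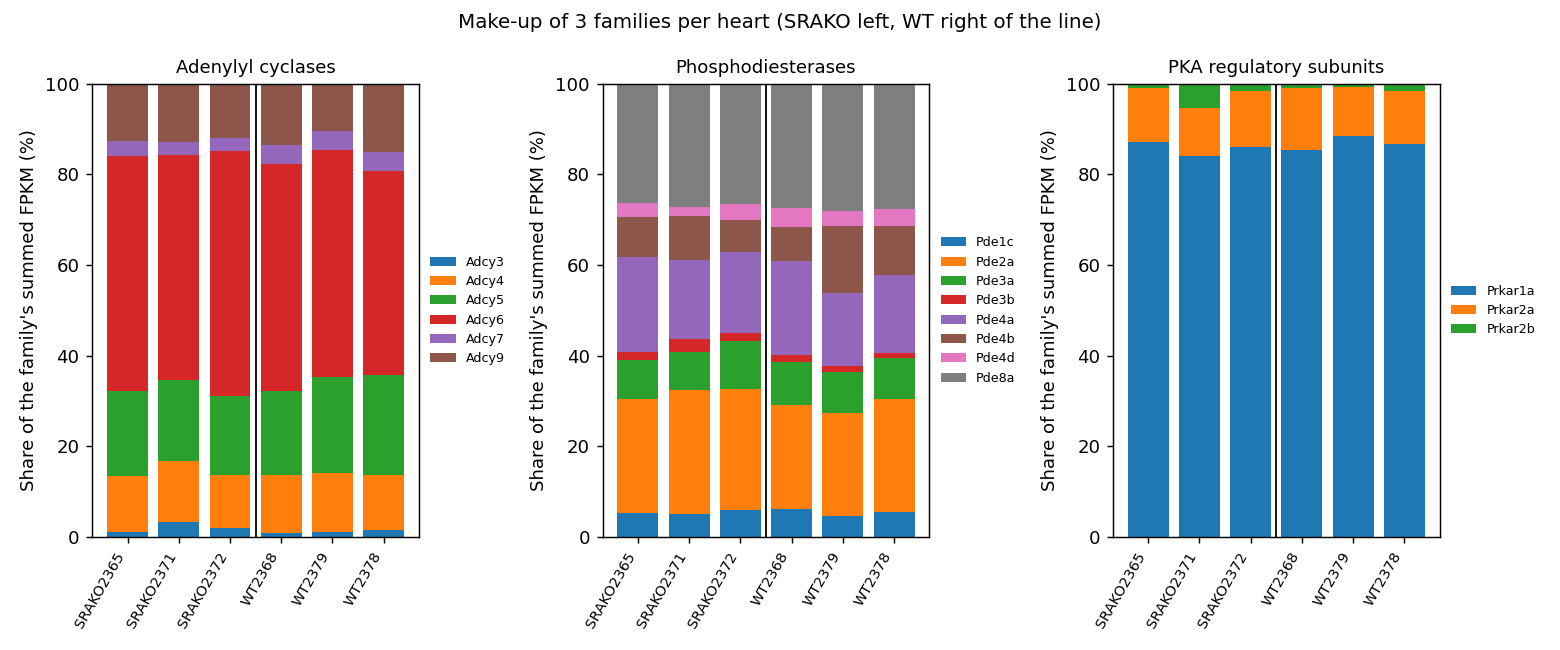
Share of each gene in the summed FPKM of its family (stacked bars, percent) for 6 adenylyl cyclases, 8 phosphodiesterases and 3 PKA regulatory subunits, SRAKO hearts left and WT hearts right of the line. Adcy6 holds 44.9% to 54.0% of the RNA of these 6 cyclases. Pde8a and Pde2a lead the 8 phosphodiesterases, with Pde2a in a row that merges it with Arap1 and Gm45837. Prkar1a holds 84.0% to 88.5% of the RNA of the 3 regulatory subunits.

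Among the 35 tested members, the beta-arrestin genes, which silence stimulated receptors, had the lowest and the highest coefficient of variation. Arrb2, beta-arrestin 2, which uncouples phosphorylated receptors from G proteins, was at 5.28, 5.25 and 5.17 FPKM in SRAKO hearts and 5.18, 5.26 and 5.24 in WT hearts. Its coefficient of variation over the 6 hearts was 0.852%, against a median of 11.4% for the tested members and 12.4% for all tested rows. Arrb1, beta-arrestin 1, was at 3.12, 3.19 and 1.01 in SRAKO2365, SRAKO2371 and SRAKO2372, and at 2.56, 3.65 and 0.596 in WT2368, WT2379 and WT2378. The low hearts, SRAKO2372 and WT2378, thus came from both genotypes. The coefficient of variation was 53.4%, and the interval of the log2 difference ran from -0.86 to 1.12.

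The share of Arrb1 in the summed beta-arrestin RNA was 16.3% in SRAKO2372 and 10.2% in WT2378, and 33.1% to 41.0% in the other 4 hearts. Grk5, a receptor kinase of the heart, was at 9.90, 8.70 and 11.05 FPKM in SRAKO and 8.88, 12.9 and 8.84 in WT, where WT2379 was the highest heart. Grk6, a widely expressed kinase of the same family, was at 2.88 to 3.37 in SRAKO and 2.81 to 3.19 in WT. The log2 differences of Grk5, Grk6, Arrb1 and Arrb2 were -0.028, 0.0049, 0.13 and 0.0018, and each turned sign when a heart was left out.

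PKA is a tetramer of regulatory and catalytic subunits. The catalytic subunit Prkaca was at 57.2, 56.9 and 55.2 FPKM in SRAKO hearts and 41.6, 56.2 and 58.9 in WT hearts. WT2368 was the low heart, and without it the log2 difference of 0.13 became -0.028. Prkacb, the beta isoform, was at 3.50 to 4.29 in SRAKO and 3.68 to 4.31 in WT, so that Prkaca held 91.9% to 94.2% of the summed FPKM of both genes in every heart.

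Prkar1a, the type I regulatory subunit, was at 48.4, 46.6 and 45.1 FPKM in SRAKO hearts and 43.8, 63.1 and 53.0 in WT hearts. WT2368 lay below all SRAKO hearts and the other WT hearts above them. On the log2 scale the difference was -0.17 (SE 0.14; limma, unadjusted p = 0.261). It was -0.30 without WT2368 and -0.045 without WT2379, so its size rested on these hearts.

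Prkar2a, the type II alpha subunit that binds most anchoring proteins, was at 6.61, 5.86 and 6.55 FPKM in SRAKO hearts and 7.05, 7.70 and 7.23 in WT hearts. Every SRAKO heart lay below every WT heart. The mean was 6.34 ± 0.416 in SRAKO and 7.33 ± 0.333 in WT (SD, n = 3 each), 86.6% of WT. On the log2 scale it differed by -0.18 (SE 0.09; limma, unadjusted p = 0.0829, adjusted p = 0.999), and the exact permutation p (two-sided) was 0.1, the lowest value 6 hearts can give. The gene spans chromosome 9 from 108689314 to 108750436 on the plus strand of GRCm38.

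Prkar2b, the type II beta subunit, which is prominent in fat and brain, was at 0.494, 3.02 and 0.826 FPKM in SRAKO2365, SRAKO2371 and SRAKO2372, and at 0.478, 0.462 and 0.976 in WT2368, WT2379 and WT2378. SRAKO2371 alone passed an FPKM of 1, and the gene was not tested. Without that heart the SRAKO mean was 0.660, against 0.639 in WT. In SRAKO2371 the gene made up 5.44% of the summed FPKM of Prkar1a, Prkar2a and Prkar2b, against 0.648% to 1.59% in the other 5 hearts.

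The ratio of Prkar1a to Prkaca RNA, formed after the values of both genes were seen, was 0.846, 0.819 and 0.817 in SRAKO hearts and 1.05, 1.12 and 0.901 in WT hearts. The genotypes did not overlap in it, with means of 0.827 ± 0.0163 in SRAKO and 1.03 ± 0.113 in WT (SD, n = 3 each). It was the only non-overlapping one of 4 ratios computed, and it was not tested.

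The heart with the most adipocyte marker RNA was also the highest for 4 of the members below the filter. The 6 markers, none of them at 0 in any heart, summed to 28.2, 218 and 108 FPKM in SRAKO2365, SRAKO2371 and SRAKO2372, and to 35.2, 32.3 and 59.0 in WT2368, WT2379 and WT2378. All 6 had a higher mean in SRAKO and 0 had an unadjusted p under 0.05 in limma. Adrb3, Adcy3, Prkar2b and the phosphodiesterase Pde3b had their highest value in SRAKO2371, the heart highest in these markers. WT2378, which had the highest adipocyte sum of the WT hearts, was the lowest heart for Adrb3 and Pde3b. For Adcy3 and Prkar2b it was the highest WT heart, at 0.962 and 0.976 FPKM. Neural and Schwann cell markers, 5 genes with none at 0, were also highest in SRAKO2371, with sums of 2.65, 4.56 and 2.39 FPKM in SRAKO and 2.74, 2.32 and 2.27 in WT. The part of fat or nerve cells in these values was not tested, and in whole-heart RNA more cells of a type and more RNA per cell cannot be told apart.

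**Figure D4:**
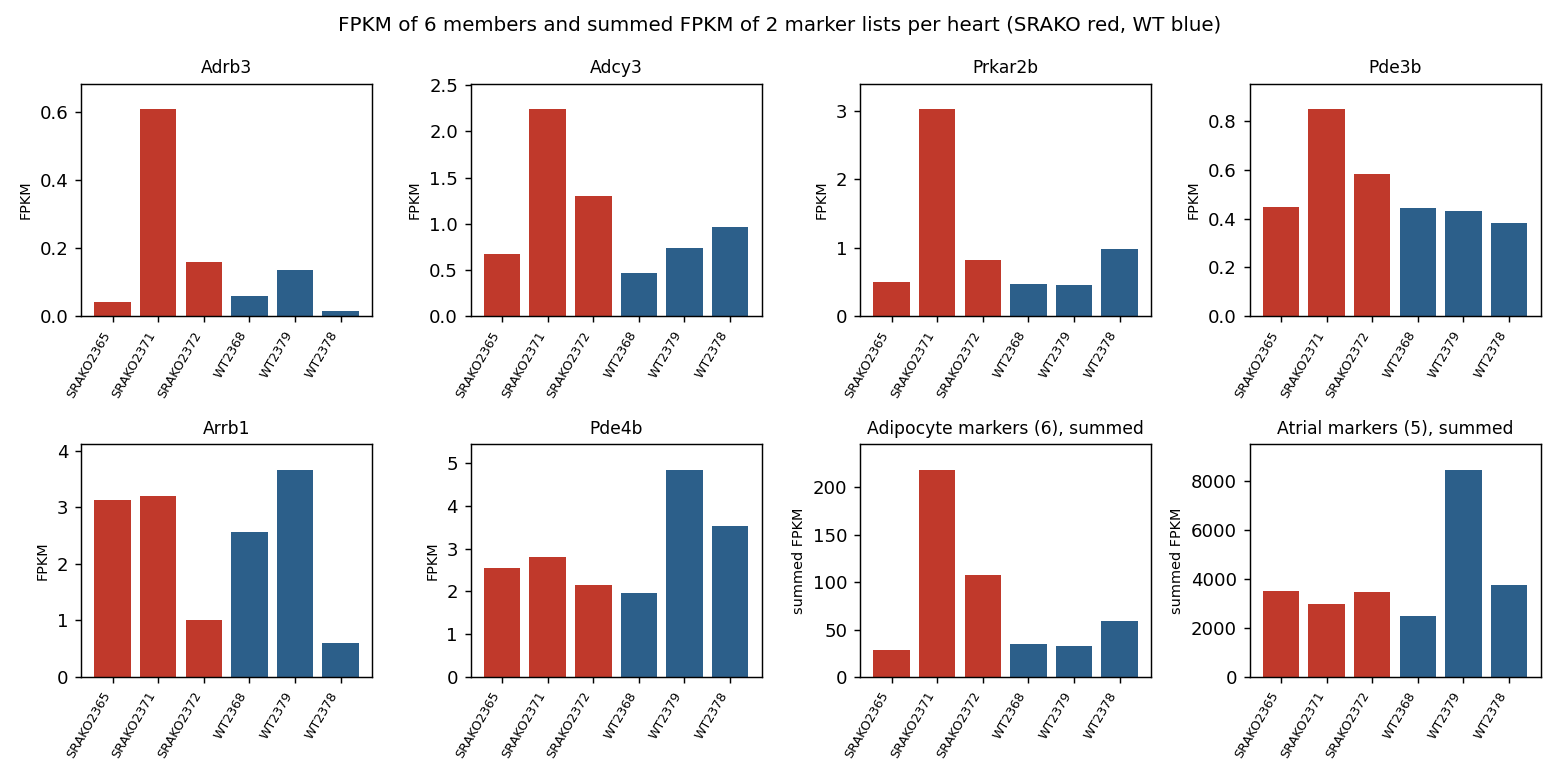
FPKM per heart of Adrb3, Adcy3, Prkar2b, Pde3b, Arrb1 and Pde4b, and summed FPKM of 6 adipocyte and 5 atrial markers, SRAKO hearts in red left of WT hearts in blue. SRAKO2371 is the highest heart for the first 4 genes and for the adipocyte markers, Arrb1 is low in SRAKO2372 and WT2378, and WT2379 is the highest heart for Pde4b and the atrial markers.

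Phosphodiesterase RNA was spread over several families. Pde8a, a cAMP-specific enzyme of high affinity, was at 7.46, 7.89 and 7.95 FPKM in SRAKO hearts and 7.28, 9.14 and 8.99 in WT hearts. Pde2a, which cGMP stimulates, was at 7.15, 7.96 and 7.98 in SRAKO and 6.11, 7.36 and 8.05 in WT, in a row that merges it with Arap1 and Gm45837. Of the exon bases of Pde2a, 66.6% are shared with Gm45837 on the same strand. Pde4a, of the cAMP-specific PDE4 family, was at 5.94, 5.06 and 5.34 in SRAKO and 5.50, 5.24 and 5.56 in WT. The genotypes overlapped in all of these, and the 8 enzymes summed to 29.1 ± 0.825 FPKM in SRAKO and 30.5 ± 3.46 in WT (SD, n = 3 each).

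Pde4d, the PDE4 isoform that in the mouse heart is tied to beta-adrenoceptors and the ryanodine receptor, was at 0.872, 0.604 and 1.04 FPKM in SRAKO hearts and 1.10, 1.07 and 1.19 in WT hearts. All SRAKO hearts lay below all WT hearts, SRAKO2372 by a narrow margin. The mean was 0.840 ± 0.221 in SRAKO and 1.12 ± 0.0628 in WT (SD, n = 3 each), 74.7% of WT. The difference in log2(FPKM + 1) was -0.21 (SE 0.11; limma, unadjusted p = 0.0831, adjusted p = 0.999; exact permutation p = 0.1, two-sided). It was -0.12 without SRAKO2371, the lowest heart. At this low level the pseudocount matters, and with a pseudocount of 0.1 in place of 1 the difference was -0.41. Pde4d passed the filter through the 3 WT hearts and SRAKO2372.

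Pde4b, the PDE4 isoform that acts on the cardiac L-type calcium current in mice, was at 2.54, 2.80 and 2.15 FPKM in SRAKO hearts and 1.97, 4.83 and 3.53 in WT hearts. The SRAKO hearts lay between WT2368 and the other WT hearts. Its log2 difference of -0.30 (SE 0.23) was the lowest of the tested members (limma, unadjusted p = 0.226), and it was -0.56 without WT2368 and -0.075 without WT2379. WT2379 also held the most atrial marker RNA: the 5 markers summed to 3509, 2978 and 3479 FPKM in SRAKO and 2482, 8439 and 3743 in WT, all 5 with a lower mean in SRAKO, none at 0 and 0 with an unadjusted p under 0.05. Their part in the Pde4b values was not tested. The share of Pde4b in the summed FPKM of Pde4a, Pde4b and Pde4d was 25.2% to 33.0% in SRAKO hearts and 23.0% to 43.3% in WT hearts.

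Pde3a and Pde3b are the enzymes that cGMP inhibits and that milrinone blocks. Pde3a, the leading form in cardiac muscle, was at 2.47, 2.44 and 3.15 FPKM in SRAKO hearts and 2.49, 2.95 and 2.96 in WT hearts. Pde3b, the form of fat cells, was at 0.447, 0.847 and 0.583 in SRAKO2365, SRAKO2371 and SRAKO2372 and at 0.443, 0.433 and 0.383 in WT2368, WT2379 and WT2378. The genotypes of Pde3b did not overlap, but SRAKO2365 and WT2368 differed only in the third decimal. It stayed below the filter, and without SRAKO2371 the SRAKO mean was 0.515, against 0.420 in WT. Pde1c, which calcium and calmodulin activate, was at 1.46 to 1.82 in SRAKO and 1.55 to 1.81 in WT.

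The 4 listed anchoring proteins, which place PKA, were led by Akap1, which sits on mitochondria, at 20.1, 20.6 and 22.0 FPKM in SRAKO hearts and 19.4, 22.3 and 23.7 in WT hearts. It held 67.9% to 72.4% of the RNA of the 4 anchoring genes in every heart. Akap6, the anchor at the nuclear envelope of the muscle cell, was at 4.44, 2.99 and 4.56 in SRAKO and 4.56, 3.66 and 4.31 in WT, lowest in SRAKO2371. Akap13, which also activates RhoA, was at 4.69 to 4.97 in SRAKO and 4.05 to 5.71 in WT. The log2 differences of Akap1, Akap6 and Akap13 were -0.053, -0.061 and -0.0038.

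Akap5, which places PKA and cyclase at the plasma membrane, was the weakest of the 4 anchoring members, at 0.0833, 0.0537 and 0.0764 FPKM in SRAKO hearts and 0.192, 0.128 and 0.132 in WT hearts. The genotypes did not overlap, and the SRAKO mean of 0.0712 ± 0.0155 was 47.3% of the WT mean of 0.150 ± 0.0358 (SD, n = 3 each). It was too low for the filter. In a limma fit of all 25901 rows without a filter its log2 difference on the log2(FPKM + 1) scale was -0.10 (SE 0.03; unadjusted p = 0.0139, adjusted p = 0.932). No other member had an unadjusted p under 0.05 in that fit.

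RGS proteins end the signal of G proteins by speeding the hydrolysis of GTP. Rgs5, a marker of pericytes, had the highest level of all 43 genes, at 85.3, 82.0 and 90.1 FPKM in SRAKO hearts and 92.8, 78.4 and 71.5 in WT hearts. The 5 pericyte markers summed to 63.6, 63.7 and 54.3 FPKM in SRAKO and 49.7, 58.9 and 66.0 in WT, 4 of 5 with a higher mean in SRAKO, and none was at 0. Rgs5 and these markers ran in opposite orders over the 3 WT hearts. Rgs2, which acts on Gq and which cAMP induces, was at 5.18, 5.81 and 6.52 in SRAKO and 5.35, 6.51 and 6.37 in WT. Rgs4 was at 4.03, 2.96 and 3.49 in SRAKO and 4.12, 2.73 and 2.82 in WT.

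Crem and Creb1, CREB family factors through which PKA reaches transcription, were weakly expressed and stayed below the filter. Crem, which gives activators as well as the repressor ICER, was at 0.489, 0.535 and 0.479 FPKM in SRAKO hearts and 0.595, 0.543 and 0.626 in WT hearts. Each SRAKO heart lay below each WT heart, with SRAKO2371 close to WT2379, and the SRAKO mean was 85.2% of the WT mean. Creb1 was at 0.606, 0.505 and 0.561 in SRAKO and 0.401, 0.570 and 0.500 in WT. Without the filter the log2 differences were -0.081 for Crem and 0.064 for Creb1 (limma, adjusted p = 0.932 and 0.932).

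Rapgef3 and Rapgef4 encode EPAC1 and EPAC2, exchange factors for Rap1 that cAMP activates without PKA. Rapgef3 was at 4.52, 4.36 and 5.21 FPKM in SRAKO hearts and 4.37, 4.46 and 4.26 in WT hearts. Rapgef4, the isoform more restricted to muscle cells in the heart, was at 1.65, 2.24 and 1.78 in SRAKO and 2.35, 2.66 and 2.12 in WT. Only SRAKO2371 reached into the WT range. For Rapgef4 the log2 difference was -0.23 (SE 0.11; limma, unadjusted p = 0.0755, adjusted p = 0.999).

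The DNA element through which this pathway acts on genes is the cAMP response element, TGACGTCA, which CREB proteins bind. It was searched with its core, TGACG or CGTCA, on both strands in RefSeq promoter windows of GRCm38.p6 that reach from 250 bases before to 50 after a gene's start. The full element holds the core on both strands. Windows were found for 34 of the 43 members. The full element was in 2 of 65 member windows (3.08%), both of Prkar1a, and in 1.79% of all 32851 windows. The 2 Prkar1a windows overlap and hold the same element, so it lies in 1 of the 34 members. The core was in 21 of the member windows (32.3%), against 20.8% of all windows, and member windows were also richer in G and C, with a median of 61.0% against 52.7%. The sites below are shown for the receptor Adrb1, for the regulatory subunits, and for Pde4b and Rgs2, with the matched letters in capitals.
Prkar1a, full element (chr11:109650890-109650917, plus strand): cgaggcgcatTGACGTCAgcagccgaac
Prkar2a, core (chr9:108692128-108692155, plus strand): gcggccgcgtgCGTCAcaacccgggcgc
Adrb1, core (chr19:56722016-56722043, plus strand): ctgcgggagccTGACGcgcggccccggg
Pde4b, core (chr4:102421510-102421537, plus strand): atttggctgcaCGTCAattttctcatct
Rgs2, core (chr1:144004318-144004345, minus strand): tgcggcgcctaCGTCAacagcgccctcg
The genes with these sites had log2 differences of -0.17, -0.18, 0.00021, -0.30 and -0.049 in that order. The 17 members with the core, all of them tested, split into 7 with a higher and 10 with a lower mean in SRAKO (log2 differences of -0.30 to 0.13, median -0.043). The 13 tested members with windows but no core split into 5 higher and 8 lower (median -0.028). A match says only that these letters are in the window, and binding was not measured.

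Other genes of the pathway gave the same count of calls. Beside the higher and lower counts of these lists, 46.5% of all tested rows had a lower mean in SRAKO. Of 23 tested genes for further receptors, G proteins, cyclases and kinases, 13 had a higher and 10 a lower mean log2 value in SRAKO, with a median difference of 0.027, and 0 passed Benjamini-Hochberg adjustment in limma (smallest adjusted p = 0.999). At an unadjusted p under 0.05 there was 1 gene, lower in SRAKO, where 1.56% of all tested rows were lower at that p. It was Gnao1, the Go alpha subunit, at 3.77, 3.23 and 3.80 FPKM in SRAKO hearts and 4.02, 6.50 and 4.68 in WT hearts (log2 difference -0.38, unadjusted p = 0.0383). The genotypes did not overlap, and the highest heart was WT2379, which was also highest in atrial markers. The part of atrial cells in the Gnao1 values was not tested. The next by p were Adra1d at 0.34, Gnb3 at 0.19 and Cap2 at -0.21 on the log2 scale. In this list 1 gene was higher and 1 lower without overlap, against 4.28% and 3.76% of all tested rows.

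Of 21 tested genes for further phosphodiesterases, anchoring proteins, Popeye proteins and RGS proteins, 14 had a higher and 7 a lower mean, with a median of 0.020 and 0 passing adjustment in limma (smallest adjusted p = 0.999). Rgs6 and Rgs19 had an unadjusted p under 0.05, both lower in SRAKO, where 1.56% of all tested rows were lower at that p. Rgs6, which ends the muscarinic signal in atrial and pacemaker cells, was at 1.23, 0.732 and 0.809 FPKM in SRAKO hearts and 0.854, 3.01 and 2.62 in WT hearts (log2 difference -0.65, unadjusted p = 0.0478). The low WT heart was WT2368, which had the lowest atrial marker sum as well. All SRAKO hearts had higher atrial sums than WT2368 (3509, 2978 and 3479 FPKM against 2482), and only SRAKO2365 had more Rgs6. These sums are mostly Nppa. Single atrial markers differed, with Nppa, Myl7, Sln and Myl4 each lowest in WT2368. In Bmp10, SRAKO2371 and SRAKO2372 lay below WT2368 (8.15 and 83.1 FPKM against 94.0) and SRAKO2365 above it (133). The part of atrial cells in the Rgs6 values was not tested. Rgs19 was at 0.927, 1.43 and 0.960 in SRAKO and 1.52, 1.46 and 1.72 in WT (log2 difference -0.29, unadjusted p = 0.0331), without overlap. Both genes passed the filter largely through WT hearts. Rgs19 did so with the WT hearts and SRAKO2371, and Rgs6 with exactly 3 hearts, WT2379, WT2378 and SRAKO2365. Akap2, in a row with Palm2 and Pakap, had a difference of 0.53 and Akap12 one of -0.17. Here too 1 gene was higher and 1 lower without overlap, against 4.28% and 3.76% of all tested rows.

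The cardiac substrates and regulators of PKA were all tested, 25 genes of which 12 had a higher and 13 a lower mean, with a median of -0.063 and 0 passing adjustment in limma (smallest adjusted p = 0.999). Phka1, the alpha subunit of muscle phosphorylase kinase, was the only gene of this list at an unadjusted p under 0.05. Of all tested rows 1.56% were lower at that p. Phka1 was at 4.71, 6.93 and 4.34 FPKM in SRAKO hearts and 7.69, 10.04 and 9.71 in WT hearts. Every SRAKO heart lay below every WT heart. In this list 0 genes were higher and 2 lower without overlap, against 4.28% and 3.76% of all tested rows. On the log2 scale the difference of Phka1 was -0.70 (SE 0.17; limma, unadjusted p = 0.00377, adjusted p = 0.999), and it ran from -0.87 to -0.58 with 1 heart left out. Ryr2, the calcium release channel, had a difference of -0.18 without overlap, Cacnb2, the calcium channel beta subunit, one of -0.34, and Lipe, the hormone-sensitive lipase of fat, one of 0.39 with its highest value in SRAKO2371.

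Genes of cAMP-responsive transcription split evenly, with 11 of 22 tested genes higher and 11 lower, a median of 0.0095, 0 passing adjustment in limma (smallest adjusted p = 0.999) and 0 at an unadjusted p under 0.05. Fos, the immediate early gene, came closest, at 4.45, 2.08 and 6.35 FPKM in SRAKO hearts and 1.55, 3.32 and 1.301 in WT hearts (log2 difference 0.76, unadjusted p = 0.0582). SRAKO2371 lay inside the WT range. Dusp1, Sik3 and Ep300 followed with differences of 0.54, 0.33 and -0.14.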

How the data were processed

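RNA of 6 mouse hearts was selected on oligo(dT) beads, per the labels' protocols, and sequenced, and the authors deposited 1 table of FPKM values per gene and heart. The submitters' processing notes name 4 tools: edgeR, StringTie 1.3.4d, HISAT2 2.0.4 and cutadapt 1.9. The notes name the human build hg38, but 99.6% of the table's Ensembl transcript identifiers matched the mouse annotation GENCODE M21 (GRCm38), from which positions and overlaps were taken through the identifiers. Groups came from the sample titles.

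FPKM are not counts, so log2(FPKM + 1) was fitted by genotype with limma 3.58.1 in R 4.3.3, with a variance trend. A row entered where 3 or more hearts reached an FPKM of 1, and Benjamini-Hochberg adjustment ran over all of them. The code was tested on simulated data. The lowest values fell on whole steps of aligned bases in only 55.0% to 70.0% of 60 rows per heart, so no reads were recovered and the depth is unknown.

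Alternatives were another pseudocount, a higher filter and none, median-of-ratios and TPM scaling, array weights, summed rows of a symbol, and hearts left out. All members were named, with the 4 genes of smallest p from each other pathway list. The ratio of Prkar1a to Prkaca was chosen after values were seen. Members and lists were chosen with earlier results of these data known.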

Additional observations from a re-analysis of the deposited data

How the results depend on the processing

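No paired analysis was possible because the labels give each heart a number of its own. The count of members called was 0 in all 14 alternatives, and the smallest adjusted p of a member in any of them was 0.718. Members at an unadjusted p under 0.05 varied more. The number higher in SRAKO, 0 in the fit as reported, was 1 with median-of-ratios scaling (Adcy6) and 1 without both WT2368 and SRAKO2371 (Rgs4), and with single hearts left out it was 0 to 1, the 1 being Adcy6 without WT2379. The number lower, also 0, was 1 without a filter (Akap5), 2 with median-of-ratios scaling (Adcy7 and Prkar2a), 5 with array weights (Adcy7, Pde4b, Prkar1a, Prkar2a and Rapgef4) and 5 without both WT2368 and SRAKO2371 (Adcy7, Gnb1, Pde4b, Prkar1a and Rapgef4). With 1 heart left out it ran from 0 to 7, the 7 without WT2368 (Adcy5, Adcy7, Gnb1, Pde4b, Pde8a, Prkar1a and Prkar2a). Over all tested rows the share lower at that p was 1.56% in the fit as reported, 1.67% without a filter, 2.24% with median-of-ratios scaling, 4.23% with array weights, 4.5% without both WT2368 and SRAKO2371 and 5.18% without WT2368. The share higher was 2.44% with median-of-ratios scaling, 2.09% without both hearts and 2.29% without WT2379, against 1.9%. The cause was not tested. WT2368 received the lowest array weight, 0.275, and these weights are estimated from the same values.

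Of the 35 tested members 16 kept their direction in every alternative and 19 turned in at least 1. With median-of-ratios scaling Adrb1 was at -0.0074, Grk6 at -0.0013, Arrb2 at -0.0045 and Pde4a at -0.0059, and with TPM scaling Akap13 at 0.0031. With array weights Adra1b was at -0.0082, Gnai3 at 0.024, Arrb2 at -0.0022 and Akap6 at 0.039. Without both WT2368 and SRAKO2371 Adra1b was at -0.032, Gnai3 at 0.14, Adcy4 at -0.036, Adcy9 at -0.00038, Arrb2 at -0.0055, Prkaca at -0.034, Pde2a at -0.024 and Akap6 at 0.15. With 1 heart left out the log2 difference ran from -0.14 to 0.12 for Adrb1, -0.064 to 0.17 for Adra1b, -0.12 to 0.022 for Gnai2, -0.14 to 0.047 for Gnai3, -0.19 to 0.055 for Adcy5, -0.11 to 0.14 for Grk5, -0.050 to 0.036 for Grk6, -0.32 to 0.48 for Arrb1 and -0.0035 to 0.0096 for Arrb2. It ran from -0.028 to 0.22 for Prkaca, -0.11 to 0.010 for Prkacb, -0.0016 to 0.17 for Pde2a, -0.053 to 0.044 for Pde4a, -0.13 to 0.0080 for Akap1, -0.15 to 0.093 for Akap6, -0.11 to 0.095 for Akap13 and -0.13 to 0.021 for Rgs2. The 8 members below the filter were described without each heart in turn, an alternative chosen after seeing the data. With no read depth given, the counting error of genes below an FPKM of 1, Akap5 above all, is unknown.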
